A study of Homo sapiens with 6 samples.

Results

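The genes described here are members of the BCL2 family, which sets whether a cell keeps its mitochondria intact or starts apoptosis. They were taken as 10 named genes, 5 anti-apoptotic (BCL2, BCL2L1, BCL2L2, BCL2A1 and MCL1) and 5 pro-apoptotic (BAK1, BID, BAD, BCL2L11 and BMF), and a gene was kept where a probe set of the array carried its symbol and no other. Of the 10 genes, 9 had such a probe set, and each had 1. They were 9 of the 19460 probe sets with exactly 1 gene symbol, among 33297 on the array. BCL2L2 is on a probe set that also carries the symbol of a readthrough transcript with the neighbouring gene PABPN1, so no value is given for it, which leaves 4 anti-apoptotic and 5 pro-apoptotic genes.

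Transcript levels came from U2OS, an established human osteosarcoma cell line, grown in DMEM with 10% FCS. SiRNA was delivered in 2 rounds of transfection, cells were collected on day 4, and total RNA was hybridised to 6 arrays. Each of 3 groups held 2 arrays. Control cells received luciferase siRNA, another group received H3.Y siRNA, and the last received siRNA against H3.X as well as H3.Y (the combined knockdown). H3.X and H3.Y are primate-specific variants of histone H3, and the comparisons ask which transcripts respond when they are depleted. All groups share the cell line, the medium and the repeated transfection, and whether the combined knockdown used several siRNAs or a single one is not stated in the labels.

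The number of probe sets named for the siRNA targets H3Y1 and H3Y2 was 0, so the knockdown itself was not analysed here. The arrays are labelled as biological replicates, but nothing states how cultures were kept apart, so p-values cover only the spread seen among these few arrays, whose number limits the precision. Array medians lay between 5.10 and 5.14 log2 units. Markers of mesenchymal and osteoblast cells, the lineage of the line, had a median rank at the 75.6th to 78.6th percentile of the probe sets on the 6 arrays. The median of epithelial markers lay at the 42.5th to 49.4th and that of blood cell markers at the 38.8th to 46.3rd percentile. The mesenchymal and osteoblast list was uneven. COL1A2 lay at the 45.1st to 53.8th and RUNX2 at the 49.1st to 60.7th percentile, against the 97.6th to 98.3rd for VIM. With the combined knockdown the epithelial marker EPCAM was higher than in luciferase cells by log2 2.25 ± 0.18 (SE, on the brighter of its 2 probe sets) and the collagen gene COL1A1 by 1.58 ± 0.17, with limma adjusted p of 0.013 and 0.019. The summed log2 level of the 8 epithelial markers measured was 38.6 and 38.3 in luciferase cells, 36.7 and 37.2 after H3.Y siRNA, and 43.2 and 42.1 in the combined knockdown. The markers were unequal in the combined knockdown. Of the 8 epithelial markers 6 lay above luciferase, among them CLDN4 at 0.70, CDH1 at 0.59, KRT14 at 0.53 and KRT5 at 0.003. The 2 below were CLDN7 at -0.05 and GRHL2 at -0.06. Of the 10 mesenchymal markers 7 lay above and 3 below, with VIM at -0.02 and THY1 at -0.30. An unadjusted limma p under 0.05 was reached by 4 of the 8 and 5 of the 10, all higher, where 7.16% of all probe sets were higher. Whether these marker differences bear on the BCL2 family was not tested.

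The anti-apoptotic proteins hold the pore-forming proteins of the family in check at the outer mitochondrial membrane. BAK1 is such a pore former. BID, BAD, BCL2L11 (BIM) and BMF are BH3-only proteins, which bind the anti-apoptotic members or activate the pore formers, and the release of cytochrome c that follows switches on caspases. Much of the regulation of these proteins, such as the turnover of MCL1, the cleavage of BID and the phosphorylation of BAD, happens after translation and is not seen by an array of transcripts. BCL2L1 and BCL2L11 transcripts are also spliced into forms of different activity, which 1 value per gene does not separate.

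BCL2A1 was the member that separated the groups most clearly, and the knockdowns lay on opposite sides of luciferase. Its transcript lay higher after H3.Y siRNA and lower in the combined knockdown, and the difference between the knockdowns passed the test. BCL2L1 lay higher in both knockdowns on every array, as did the pro-apoptotic BAK1, and neither passed over all probe sets. BCL2 lay lower in the combined knockdown and did not pass either. Of the other 5 members, MCL1, BID, BAD, BCL2L11 and BMF, none passed, and BID between the knockdowns, at log2 -0.48, was the farthest from 0. Each array read a whole culture, so a change in some of the cells and a change in every cell cannot be told apart.

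Since BCL2A1 is the gene on which these results turn, the sequence before its transcription start is shown. BCL2A1 encodes BFL1, known as a target of the transcription factor NF-kB. The window is from RefSeq (GRCh38.p14), chr15:79971197-79971446, minus strand, and ends 1 base before the start. Capitals mark TATAAA, the only one of 4 motifs searched that this window holds.

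BCL2A1: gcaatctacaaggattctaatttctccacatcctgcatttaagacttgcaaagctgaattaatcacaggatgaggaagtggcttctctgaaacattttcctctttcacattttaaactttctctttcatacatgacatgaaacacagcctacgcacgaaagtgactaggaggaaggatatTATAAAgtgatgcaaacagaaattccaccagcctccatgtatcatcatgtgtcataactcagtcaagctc

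The TATAAA run lies 70 to 65 bases before the start. The table of promoters held 15 windows of 250 bases for 8 members, and TATAAA was found on either strand in those of BCL2A1 and BCL2L1 and in 10.7% of all 35116 windows. The GC-rich motif GGGCGG was found in 9 of the 15 windows, of BAD, BAK1, BCL2L11, BID and BMF, and in 42.6% of all windows. CCAAT was found in 5 of them and in 32% of all windows, and an NF-kB consensus in 1, of BMF, and in 9.96% of all windows. The BCL2A1 window holds 2 CpG dinucleotides, against 0 to 34 in the other 14, and 38.8% G and C, against 47.6% to 78%. Matches and their absence describe these windows alone, and nothing on these arrays measured the binding of a factor.

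Beginning with the anti-apoptotic members, BCL2A1 gave 4.82 and 4.82 log2 units on the luciferase arrays. It gave 6.38 and 5.43 after H3.Y siRNA. On the combined arrays it gave 3.94 and 3.95. The 3 groups did not overlap, with both H3.Y arrays above and both combined arrays below the luciferase arrays, and the H3.Y arrays were the only ones far apart from each other. BCL2A1 was lower in the combined knockdown than after H3.Y siRNA by 3.89-fold (log2 -1.96 ± 0.29 SE, n = 2 arrays per group, limma adjusted p = 0.023, 95% interval -2.66 to -1.26). Among the 33297 probe sets, this was the 117th largest difference in size. It is the 1 of 9 members called, where 4.67% of all probe sets were called between the knockdowns.

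Relative to luciferase, BCL2A1 differed by log2 1.08 ± 0.29 after H3.Y siRNA (adjusted p = 0.185) and by -0.88 ± 0.29 in the combined knockdown (adjusted p = 0.22), so neither passed over all probe sets. These differences share the luciferase arrays and are not independent of each other. Their SE pools the spread of all 3 groups. The SD of BCL2A1 was 0.675 on the H3.Y arrays, 0.0016 on the luciferase arrays and 0.0080 on the combined arrays. Fitted on only the 4 arrays compared, the difference of -0.88 was called (limma adjusted p = 0.039), where 644 of 33297 probe sets were called. The difference of 1.08 was not called in its own fit of 4 arrays (limma adjusted p = 0.311), where no probe set was called. Without H3.Y replicate 1 the difference after H3.Y siRNA was 0.61, and without replicate 2 it was 1.56. The difference between the knockdowns was called without H3.Y replicate 1 (log2 -1.48, adjusted p = 0.034) and without replicate 2 (-2.44, adjusted p = 0.011). It was not called when either luciferase array was left out or only the 4 arrays compared were fitted (adjusted p = 0.063 each), nor without combined replicate 1 (adjusted p = 0.15) or 2 (adjusted p = 0.12), each with fewer residual degrees of freedom. The probe set lay at the 32.9th to 67.0th percentile of its array. BCL2A1 is best known from blood cells. Of 11 blood cell markers measured, 0 were called in any of the 3 comparisons in limma, beside 0.279%, 1.84% and 4.67% of all probe sets. An unadjusted p under 0.05 was reached by 0, beside 13.9%, 15.3% and 19% of all probe sets. The markers ranged from PTPRC, the common leukocyte antigen CD45, at the 6.93rd to 10.5th percentile, to TYROBP, at the 59.9th to 63.6th. After H3.Y siRNA 7 of the 11 lay higher than luciferase and 4 lower, with LCP2 at log2 0.41 ± 0.17 (limma adjusted p = 0.37).

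**Figure D1:**
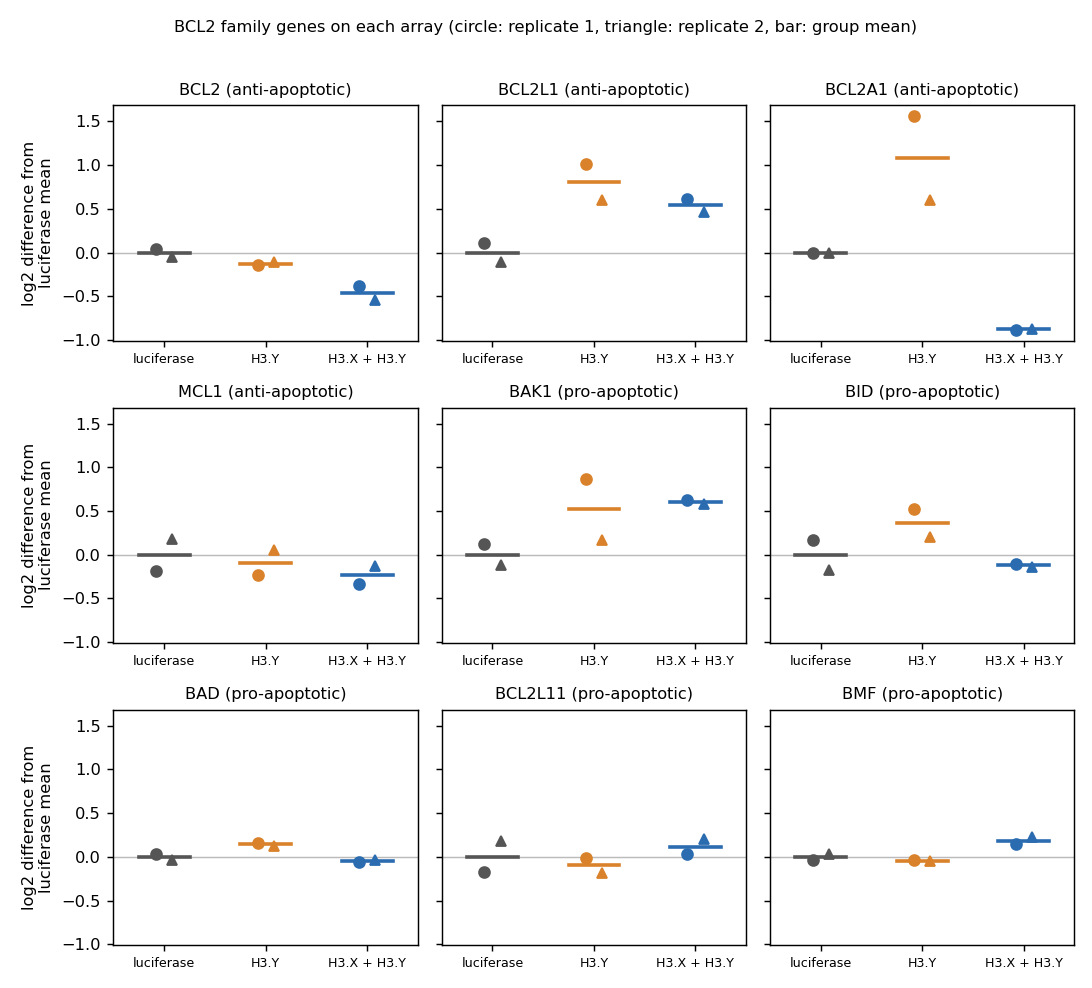
Level of each of the 9 measured BCL2 family genes on each of the 6 arrays, as the log2 difference from the mean of the luciferase arrays (vertical axis, the same for all genes), with groups along the horizontal axis. Circles are replicate 1, triangles replicate 2 and bars group means. BCL2A1 lies 1.08 above luciferase after H3.Y siRNA and 0.88 below it in the combined knockdown, and the 2 H3.Y arrays of BCL2A1 and BAK1 lie far apart.

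BCL2L1 encodes BCL-XL, the long-lived survival protein of many adherent cells. Its log2 levels were 10.2 and 9.96 on the luciferase arrays, 11.1 and 10.7 after H3.Y siRNA, and 10.7 and 10.5 in the combined knockdown. Both knockdowns thus lay above luciferase with no overlap, and they overlapped each other. The difference from luciferase was log2 0.81 ± 0.18 after H3.Y siRNA, a 1.75-fold higher level (adjusted p = 0.14), and 0.54 ± 0.18 in the combined knockdown (adjusted p = 0.23). Between the knockdowns it was -0.27 ± 0.18, with a 95% interval of -0.71 to 0.17. Probe sets with 1 gene symbol were also refitted and adjusted without the others, which changes the moderated spread as well as the number of tests. There BCL2L1 was called after H3.Y siRNA (limma adjusted p = 0.039), as were 829 of the 19460 probe sets in all, against 93 of 33297 in the main fit.

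BCL2, the founding member of the family, gave 5.74 and 5.65 log2 units in luciferase cells, 5.55 and 5.59 after H3.Y siRNA, and 5.31 and 5.15 in the combined knockdown. The 3 groups did not overlap and both combined arrays were lowest. The difference from luciferase was log2 -0.13 ± 0.13 after H3.Y siRNA (adjusted p = 0.75) and -0.46 ± 0.13 in the combined knockdown (adjusted p = 0.16). It was -0.34 ± 0.13 between the knockdowns (adjusted p = 0.24). MCL1, a short-lived survival protein, gave 9.65 and 10.02 in luciferase cells, 9.60 and 9.89 after H3.Y siRNA, and 9.50 and 9.70 in the combined knockdown. Its groups overlapped in every comparison, and replicate 2 was the higher array in each group. Its 95% intervals were -0.54 to 0.36 for H3.Y siRNA and -0.68 to 0.22 for the combined knockdown against luciferase, and these arrays do not resolve changes of that size.

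Among the pro-apoptotic members, the pore former BAK1 gave 7.96 and 7.72 log2 units in luciferase cells, 8.71 and 8.01 after H3.Y siRNA, and 8.46 and 8.42 in the combined knockdown. All 4 knockdown arrays lay above both luciferase arrays, H3.Y replicate 2 by little. The difference from luciferase was log2 0.52 ± 0.24 after H3.Y siRNA (adjusted p = 0.41) and 0.60 ± 0.24 in the combined knockdown (adjusted p = 0.30), and the knockdowns differed by 0.08 ± 0.24 (95% interval -0.49 to 0.66). Without H3.Y replicate 1, the difference after H3.Y siRNA was 0.17, and without H3.Y replicate 2 it was 0.87.

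BID is the BH3-only protein that links death receptors to mitochondria once a caspase has cut it. It gave 7.47 and 7.13 log2 units in luciferase cells, 7.82 and 7.50 after H3.Y siRNA, and 7.20 and 7.16 in the combined knockdown. The H3.Y arrays lay just above luciferase and above the combined arrays, while combined and luciferase arrays overlapped. BID differed by log2 0.36 ± 0.18 after H3.Y siRNA, by -0.12 ± 0.18 in the combined knockdown and by -0.48 ± 0.18 between the knockdowns, with adjusted p of 0.45, 0.86 and 0.21.

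BAD, which binds BCL2 and BCL-XL when it is not phosphorylated, gave 6.66 and 6.59 log2 units in luciferase cells, 6.79 and 6.76 after H3.Y siRNA, and 6.56 and 6.59 in the combined knockdown. The H3.Y arrays were highest by a narrow margin, at log2 0.14 ± 0.12 against luciferase, and the combined knockdown gave -0.05 ± 0.12. Its 95% intervals against luciferase, -0.15 to 0.44 and -0.35 to 0.25, were the narrowest among the members. BCL2L11 encodes BIM, a BH3-only protein under FOXO control, and gave 4.60 and 4.96 in luciferase cells, 4.77 and 4.60 after H3.Y siRNA, and 4.81 and 4.99 in the combined knockdown. Both knockdowns overlapped luciferase, with differences of log2 -0.10 ± 0.17 and 0.12 ± 0.17. BMF, which is held at the cytoskeleton until stress or loss of attachment frees it, gave 4.90 and 4.98 in luciferase cells, 4.90 and 4.89 after H3.Y siRNA, and 5.08 and 5.17 in the combined knockdown. The combined arrays lay above the others, at log2 0.19 ± 0.13 against luciferase and 0.23 ± 0.13 against H3.Y siRNA. Adjusted p for BAD, BCL2L11 and BMF lay between 0.41 and 0.94 over the 3 comparisons.

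**Figure D2:**
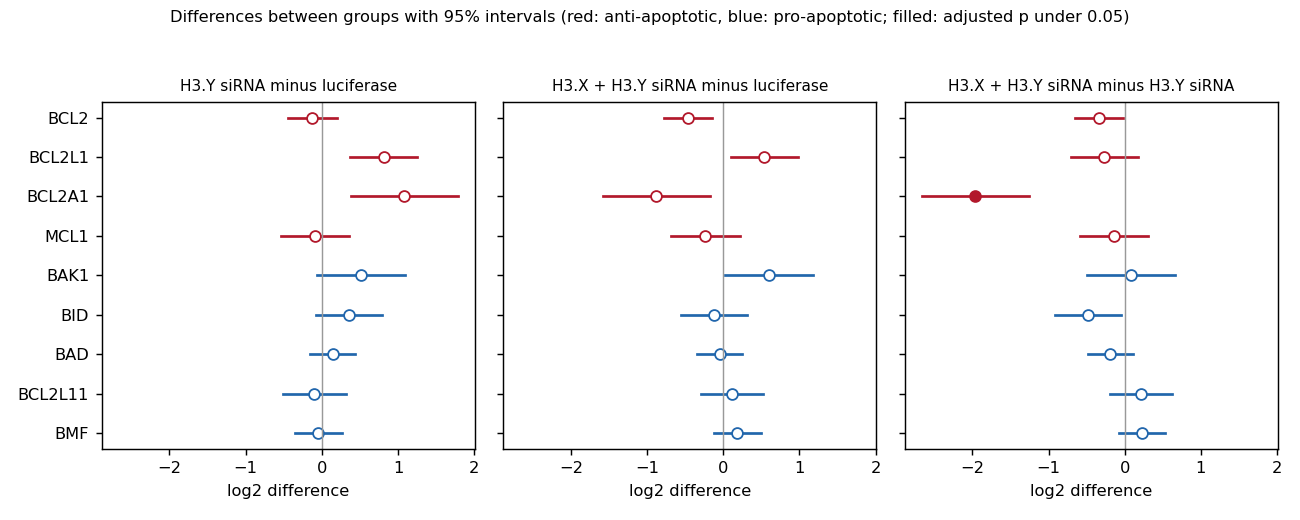
Log2 difference between groups (horizontal axis) for each of the 9 measured members (vertical axis) in the 3 comparisons, with points for the estimate and lines for its 95% interval from limma, not adjusted for the number of probe sets. Filled points passed an adjusted p of 0.05, which BCL2A1 alone did, at -1.96 between the knockdowns.

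Counted over the 9 members, 0 were called in limma after H3.Y siRNA, where 0.279% of all probe sets were called, and 0 in the combined knockdown against luciferase, where 1.84% were called. An unadjusted p under 0.05 was reached after H3.Y siRNA by 2 of 9 members, BCL2L1 and BCL2A1, both higher, against 13.9% of all probe sets in either direction and 6.21% higher. Against luciferase, 4 of 9 reached it under the combined knockdown, beside 15.3% of all probe sets. BCL2L1 and BAK1 were the higher 2, where 7.16% of all probe sets were higher, and BCL2 and BCL2A1 the lower 2, where 8.12% were lower. BCL2, BCL2A1 and BID reached it between the knockdowns, 3 of 9 and all lower in the combined knockdown, against 19% of all probe sets in either direction and 9.28% lower.

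Arrays did not overlap with luciferase for 7 of 9 members after H3.Y siRNA, 5 higher and 2 lower, where this held for 41.7% of all probe sets (21.7% higher, 20% lower). It held for 5 of 9 members under the combined knockdown, 3 higher and 2 lower, and for 47.4% of all probe sets (23.4% higher, 24% lower). Between the knockdowns it held for 6 of 9 members, with 2 higher and 4 lower under the combined knockdown, and for 46.6% of all probe sets (21.2% higher, 25.4% lower). With 2 arrays per group, arrays of many probe sets thus fell apart by group without a call. The median size of the difference was log2 0.14 over the members and 0.17 over all probe sets after H3.Y siRNA, 0.23 and 0.16 for the combined knockdown, and 0.23 and 0.19 when the knockdowns were compared.

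Set against each other, anti-apoptotic members averaged log2 0.42 above luciferase after H3.Y siRNA and pro-apoptotic members 0.18 above it. Under the combined knockdown the anti-apoptotic members averaged -0.26 and the pro-apoptotic members 0.15. The anti-apoptotic mean minus the pro-apoptotic mean was therefore 0.24 after H3.Y siRNA and -0.41 in the combined knockdown, which differ by -0.65. Single arrays gave 0.24 and 0.25 after H3.Y siRNA and -0.44 and -0.37 in the combined knockdown, beside -0.03 and 0.03 in luciferase cells. The luciferase pair mirrors about 0 because its own mean is the reference. The H3.Y arrays lay closer in this difference than on either side alone. There replicates 1 and 2 gave 0.55 and 0.29 for anti-apoptotic members, and 0.30 and 0.05 for pro-apoptotic members. These means are a description without a test, since the genes are not replicates of each other. BCL2A1 carried much of them. Without it, a choice made after its values were seen, the anti-apoptotic minus pro-apoptotic values were 0.02, -0.20 and -0.22.

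**Figure D3:**
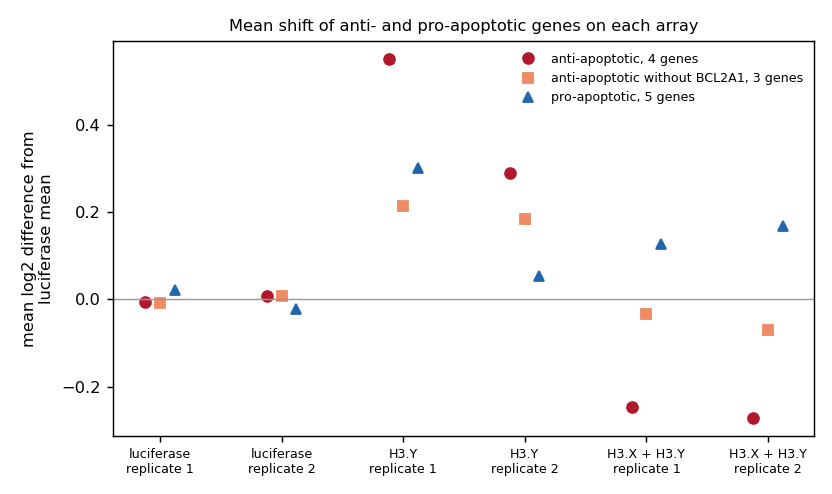
Mean log2 difference from the luciferase mean (vertical axis) of the 4 anti-apoptotic genes, of the 3 anti-apoptotic genes other than BCL2A1, and of the 5 pro-apoptotic genes, on each of the 6 arrays (horizontal axis). The 4 anti-apoptotic genes lie at 0.55 and 0.29 on the H3.Y arrays and at -0.25 and -0.27 on the combined arrays, while without BCL2A1 they lie at 0.21 and 0.18, and at -0.03 and -0.07.

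The H3.Y arrays differed from each other more than those of the other groups. Over all probe sets, the SD of replicate 1 minus replicate 2 was 0.419 for H3.Y, 0.333 for luciferase and 0.304 for the combined knockdown. Replicate 1 was higher than replicate 2 for 7 of 9 members after H3.Y siRNA, by up to 0.95 log2 units for BCL2A1, against 48.1% of all probe sets. The largest such gap was 0.37 in luciferase cells and 0.20 in the combined knockdown, both of MCL1. The part of this spread in the results after H3.Y siRNA was not tested beyond the values without each array.

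Other genes of the pathway were taken from lists by function. Of 15 other genes listed with the BCL2 family, BNIP genes included and all measured, 0 were called after H3.Y siRNA in limma, beside 0.279% of all probe sets. An unadjusted p under 0.05 was reached by 2 of them, beside 13.9% of all probe sets. These were BNIP3 at log2 -0.55 ± 0.14 and the BH3-only gene HRK at 0.52 ± 0.13. BNIP3 was called in the combined knockdown, 1 of 15 genes, where 0.985% of all probe sets were called lower. BNIP3 is a protein of the outer mitochondrial membrane that acts in mitophagy and is induced by hypoxia. It gave 7.61 and 7.80 log2 units in luciferase cells, 7.14 and 7.16 after H3.Y siRNA, and 6.30 and 6.47 in the combined knockdown. The 3 groups did not overlap, with the combined arrays lowest. BNIP3 fell by 1.32 ± 0.14 on the log2 scale against luciferase (adjusted p = 0.018) and by 0.77 ± 0.14 against H3.Y siRNA (adjusted p = 0.037). The pore former BAX differed from luciferase by 0.08 ± 0.18 and -0.12 ± 0.18, and the p53-induced BH3-only genes BBC3 (PUMA) by 0.37 ± 0.19 and 0.07 ± 0.19 and PMAIP1 (NOXA) by 0.31 ± 0.17 and 0.41 ± 0.17, named after their values were seen.

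Downstream of the mitochondria, 13 of 15 caspases and mitochondrial death factors were measured. In limma 0 were called against luciferase in either knockdown, beside 0.279% and 1.84% of all probe sets. An unadjusted p under 0.05 was reached by 3 and 2 of the 13, beside 13.9% and 15.3% of all probe sets. Between the knockdowns 1 was called higher and 1 lower in the combined knockdown, beside 2.74% and 1.92% of all probe sets. CASP6, an effector caspase, gave 6.06 and 6.19 log2 units in luciferase cells, 4.39 and 5.35 after H3.Y siRNA, and 6.28 and 6.37 in the combined knockdown. It was low on both H3.Y arrays and differed between the knockdowns by log2 1.45 ± 0.30 (adjusted p = 0.049), with -1.26 ± 0.30 after H3.Y siRNA against luciferase (adjusted p = 0.15). HTRA2, a mitochondrial protease that opposes the inhibitor of apoptosis proteins, gave 7.73 and 7.67, then 8.06 and 8.11, and 7.35 and 7.28 in the same order of groups. Its groups did not overlap, highest after H3.Y siRNA and lowest in the combined knockdown, as for BCL2A1, and the knockdowns differed by log2 -0.76 ± 0.13 (adjusted p = 0.029). DIABLO, another antagonist of those inhibitors, was at -0.84 ± 0.22 after H3.Y siRNA and 0.09 ± 0.22 in the combined knockdown (adjusted p = 0.17 and 0.93). CYCS, cytochrome c, was at -0.57 ± 0.18 in the combined knockdown (adjusted p = 0.21).

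Inhibitor of apoptosis genes were called in 0 of 6 measured (7 listed) and death receptor genes in 0 of 10 measured (13 listed) in each of the 3 comparisons in limma. Over all probe sets 0.279%, 1.84% and 4.67% were called. An unadjusted p under 0.05 was reached by 0 to 2 genes of a list, beside 13.9%, 15.3% and 19% of all probe sets. After H3.Y siRNA, BIRC5 (survivin, also a mitotic protein) was at log2 -0.44 ± 0.14 and NAIP at -0.48 ± 0.17, with NAIP read by 3 probe sets of which a pair gave identical values. FAS, the death receptor that feeds BID cleavage, was at 0.71 ± 0.24. The caspase-8 antagonist CFLAR was at 0.23 ± 0.14 on the brighter of its 2 probe sets. The other CFLAR probe set, low on the array at the 16.4th to 30.6th percentile, went the other way, at -0.46 ± 0.25. Under the combined knockdown BIRC5 was at -0.34 ± 0.14 and BIRC2 at -0.21 ± 0.17, the death ligand TNFSF10 (TRAIL) was at 1.04 ± 0.29 and its receptor TNFRSF10B at 0.46 ± 0.14. TNFSF10 lay low on the array, at the 9.03rd to 32.1st percentile, and at 2.92 and 3.86 log2 units on the combined arrays. Adjusted p of these values lay between 0.16 and 0.68.

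Regulators and partners of BCL2 family proteins were measured for 18 of 19 genes. YWHAE encodes 14-3-3 epsilon, one of the proteins that hold phosphorylated BAD in the cytosol, and was read by 2 probe sets. The first gave 10.33 and 10.36 log2 units in luciferase cells, 9.31 and 9.11 after H3.Y siRNA, and 10.27 and 10.27 in the combined knockdown. It was low on both H3.Y arrays only, and fell by 1.14 ± 0.14 on the log2 scale after H3.Y siRNA (adjusted p = 0.043). The second gave -1.02 ± 0.14 (adjusted p = 0.064), and between the knockdowns both were called, at 1.06 ± 0.14 and 1.01 ± 0.14. BECN1, an autophagy protein with a BH3 domain that BCL2 binds, gave 7.26 and 7.29 in luciferase cells, 6.23 and 6.52 after H3.Y siRNA, and 7.58 and 7.48 in the combined knockdown. It was likewise low on the H3.Y arrays, and differed between the knockdowns by log2 1.15 ± 0.15 (adjusted p = 0.016), against -0.90 ± 0.15 for H3.Y siRNA and luciferase (adjusted p = 0.081). On the probe set with the highest mean of each gene, 0 of 18 were called in limma for H3.Y siRNA and 0 for the combined knockdown against luciferase. Over all probe sets 0.279% and 1.84% were called. An unadjusted p under 0.05 was reached by 5 and 1 of the 18, beside 13.9% and 15.3% of all probe sets. The 2 called when the knockdowns were compared were higher in the combined knockdown, beside 2.74% of all probe sets. Against luciferase, its lowest p values belonged to FOXO4, at 0.33 ± 0.14, and FBXW7, a subunit of a ubiquitin ligase that targets MCL1, at 0.51 ± 0.25 (adjusted p = 0.325 and 0.405). With an array left out, calls were lost while the sizes of most differences stayed close. Between the knockdowns, without single arrays, BNIP3 ran from log2 -0.85 to -0.68, HTRA2 from -0.80 to -0.73, BECN1 from 1.01 to 1.30 and the first YWHAE probe set from 0.96 to 1.16, with CASP6 wider at 0.98 to 1.93. Each such fit has fewer residual degrees of freedom. The calls of BNIP3 and HTRA2 between the knockdowns were lost without any 1 of the 6 arrays (adjusted p from 0.055 to 0.253), and those of CASP6 and BECN1 without any but H3.Y replicate 2 (0.0502 to 0.225). For YWHAE, the call between the knockdowns was lost without either combined array on both probe sets (0.108 to 0.155) and without either luciferase array on the second (0.057). Its call after H3.Y siRNA, where 0.195% of all probe sets were called lower, was lost without any array but H3.Y replicate 2 (0.114 to 0.324, at log2 -1.24 to -1.03) and with only the 4 arrays compared (0.146). BNIP3 in the combined knockdown against luciferase was called without either H3.Y array and lost without any other (0.103 to 0.173).

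**Figure D4:**
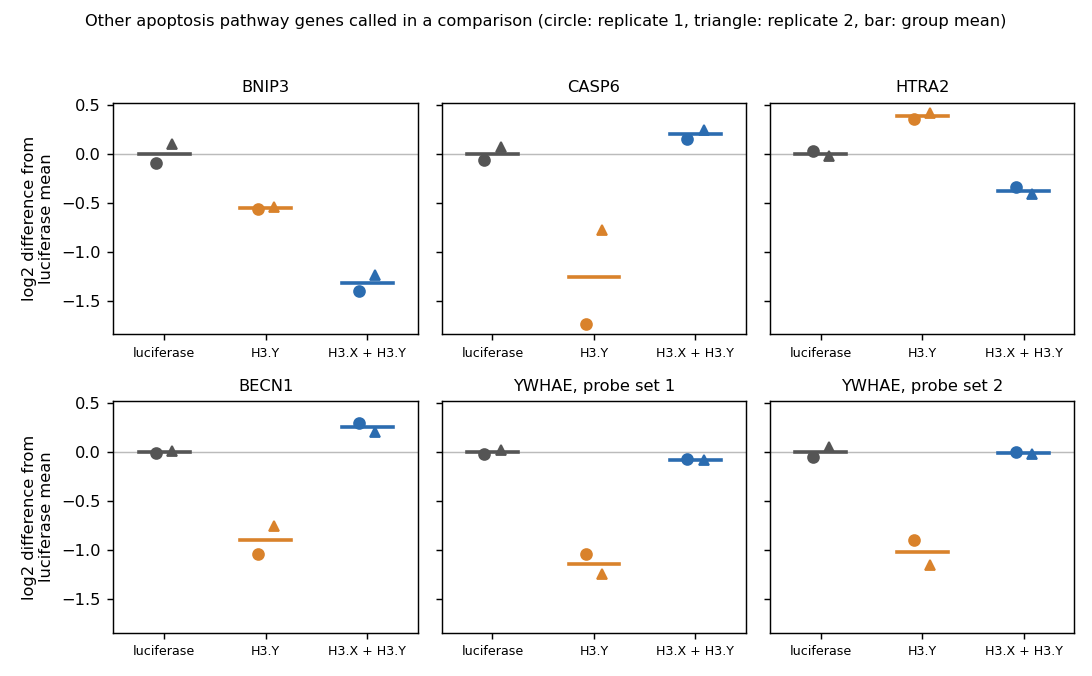
Level on each of the 6 arrays of the 5 other apoptosis pathway genes called in a comparison, as the log2 difference from the luciferase mean (vertical axis), by group (horizontal axis), with YWHAE on its 2 probe sets. Circles are replicate 1, triangles replicate 2 and bars group means. BNIP3 is 1.32 below luciferase in the combined knockdown, and CASP6, BECN1 and YWHAE are low on the H3.Y arrays, at -1.26, -0.90, -1.14 and -1.02.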

How the data were processed

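Biotin-labelled RNA of 6 U2OS cultures was hybridised to Affymetrix arrays, per the labels. The deposited log2 values, 1 for each probe set, were made by the authors with oligo, a Bioconductor package named in the submitters' processing notes. Its version, the background correction and the build: not given in the sources used here. A log base of 2 was inferred from the values, 0.687 to 14.0. Arrays on a common scale cannot show a change of all transcripts alike. The number of unused value columns was 0.

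Symbols came from the platform's annotation (33297 probe sets, of which 1754 had several symbols and 12083 none), updated through RefSeq (GRCh38.p14). Groups were compared with limma 3.58.1 in R 4.3.3, using lmFit with a mean for each of the 3 groups, and eBayes (residual degrees of freedom 3, prior 3.43). Two-sided p-values were adjusted over the whole array (Benjamini-Hochberg) in each comparison, and a call needed an adjusted p under 0.05. Intervals of 95% are not adjusted. The procedure was tested on simulated data in which each probe set had the same spread in all groups. That setting does not cover spreads as unequal as those of BCL2A1. Every member was named. Of each other list, up to 3 called genes, or else the 2 with the lowest p, were named, by their highest-mean probe set. The members and lists were chosen with earlier results of these data known. Alternatives were a replicate block, the 4 arrays compared, quantile normalization, median centring, probe sets above the 30th percentile on at least 2 arrays (all 9 members passed), probe sets with 1 symbol, an intensity trend with a robust prior, and leaving out each array.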

Additional observations from a re-analysis of the deposited data

Results flagged for a closer look

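By limma's test between the knockdowns, their effects differed for 1 of 9 members and 5 other pathway genes, beside 4.67% of all probe sets. Those 5 were 1 of 15 other genes listed with the BCL2 family, 2 of 13 caspases and mitochondrial death factors and 2 of 18 regulators. Of inhibitor of apoptosis and death receptor genes, 0 of 6 and 0 of 10 were called. The effects also differed for 3 of 10 mesenchymal and 3 of 8 epithelial markers. Values are the combined knockdown minus H3.Y siRNA in log2 units. BCL2A1 was at -1.96 (limma adjusted p = 0.023), from 1.08 against luciferase after H3.Y siRNA and -0.88 in the combined knockdown. This call was lost with only the 4 arrays compared. BNIP3 was at -0.77 and HTRA2 at -0.76. CASP6 was at 1.45, BECN1 at 1.15, and YWHAE at 1.06 and 1.01 on its 2 probe sets. These calls also depended on single arrays, as given above. BCL2A1, HTRA2, CASP6 and BECN1 were not called against luciferase in either knockdown. Of the mesenchymal markers, COL1A1 was at 2.10, SPARC at 1.31 and CDH2 at 1.08. Of the epithelial markers, EPCAM was at 2.46, CLDN4 at 1.51 and KRT14 at 0.86.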

How the results depend on the processing

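The direction of each member difference was the same under the replicate block, the 4 arrays compared, quantile normalization, median centring, the filter on dim probe sets, the restriction to 1 symbol and the trended robust prior. With 2 arrays per group, calls depended on the arrays fitted. Called members numbered 0 after H3.Y siRNA, where 93 of 33297 probe sets were called. With probe sets of 1 symbol they numbered 1 (BCL2L1), where 829 of 19460 probe sets were called. In the combined knockdown they numbered 0, beside 614 of 33297 probe sets. With only the 4 arrays compared they numbered 1 (BCL2A1), beside 644. Between the knockdowns the 1 call, beside 1554 probe sets, became 0 with only the 4 arrays compared, beside 448. Directions reversed when single arrays were left out for MCL1 (-0.27 to 0.092) and BCL2L11 (-0.27 to 0.079) after H3.Y siRNA, BID (-0.29 to 0.047) and BCL2L11 (-0.059 to 0.29) in the combined knockdown, and MCL1 (-0.29 to 0.00081) and BAK1 (-0.27 to 0.43) between the knockdowns, none of them called.

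The anti-apoptotic minus pro-apoptotic value was 0.21 to 0.27, -0.44 to -0.37 and -0.68 to -0.62 without single arrays, in the same order. As a median over members it was -0.47 under the combined knockdown and -0.39 between them, and without BCL2A1 it was 0.022, -0.20 and -0.22. A mean over probe sets of a gene was not run, since each member had 1. Replicate numbers are shared by the groups, and the difference between replicates 1 and 2 correlated between groups by 0.22, 0.28 and 0.12 over probe sets. With 2 arrays per group this does not show that numbers pair the cultures. With the replicate block, 0, 0 and 1 members were called, BCL2A1 between the knockdowns at -1.96 (adjusted p = 0.025), and YWHAE after H3.Y siRNA was not called (adjusted p = 0.055). Over all probe sets the calls were 93, 614 and 1554, and over the alternatives 0 to 829, 0 to 1549 and 12 to 2715. The cause of these changes was not tested.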
